A study of Mus musculus with 26 samples.

Results

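The normalized counts of 7 genes were followed through positive selection in the thymus. These were Klf2, Klf3, Klf6 and Klf13 of the Krüppel-like factor (KLF) family, the forkhead transcription factor gene Foxo1, the sphingosine 1-phosphate receptor gene S1pr1, and Cd24a, which encodes the surface glycoprotein CD24. They were taken by gene symbol from a table of 46517 symbols. All 7 were among the 16372 symbols tested, which had to reach a value of 10 in 2 or more libraries.

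Bulk RNA was sequenced from sorted thymocytes of 3 T cell receptor (TCR) transgenic lines with low (TG6), intermediate (F5) and high (OT-1) self-reactivity. TG6 mice carried TG6tg on an H2b/d background (C57/BL6 x B6.C-H2d/bByJ), F5 mice were F5tg Rag1KO and OT-1 mice were OT-1tg Rag2KO, both on C57/BL6. Cells were sorted as early (CD4+CD8+ with CXCR4+CCR7-), as late (CD4+CD8+ with CXCR4-CCR7+) in positive selection, or as mature CD8 single positive (CD4-CD8+ with CXCR4-CCR7+), the gates called early, late and mature here. Each of the 9 groups had 3 libraries except TG6 late, which had 2, so there were 26 libraries. No Rag deletion is given for TG6 in the RNA-seq samples, and the labels give no age for each sample. Self-reactivity, H2 haplotype and Rag genotype differed together between TG6 and the other lines and cannot be told apart in these comparisons. The deposited values summed to between 16134786 and 18944173 per library.

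FOXO1 is held out of the nucleus by phosphorylation when phosphoinositide 3-kinase and AKT are active, and when nuclear it drives genes of naive T cells, Klf2 among them. KLF2 in turn drives S1pr1, whose product reads the sphingosine 1-phosphate gradient by which mature thymocytes leave the thymus. CD69 binds S1PR1 and pulls it from the surface. CD24 is high on immature thymocytes and low on those ready to leave.

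In the GENCODE vM21 annotation of GRCm38 (mm10), the build of the submitters' alignment, all 7 genes are protein coding. Klf2 lies on chromosome 8 (72319033 to 72321656, plus strand), S1pr1 on chromosome 3 (115710433 to 115715072, minus strand) and Foxo1 on chromosome 3 (52268336 to 52353221, plus strand). Klf3 lies on chromosome 5 (64803388 to 64832901, plus strand), Klf6 on chromosome 13 (5861482 to 5870394, plus strand), Klf13 on chromosome 7 (63886351 to 63938915, minus strand) and Cd24a on chromosome 10 (43578284 to 43584265, plus strand). Klf3, Klf13 and Foxo1 each overlap a gene annotated on the opposite strand (Gm20033, Gm27252 and E030018B13Rik, and Gm20402). Whether the library kit kept strand was not given in the sources used here, so reads of such partners cannot be told apart.

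RefSeq promoters (GRCm38.p6) were found for 5 of the 7 genes, all but S1pr1 and Cd24a. The sequences of 3 are shown because Klf2, Foxo1 and Klf3 followed different courses across the groups. Capitals mark GC boxes (GGGCGG or its reverse complement) and, in Klf2, a match to the MEF2 consensus, the binding motif of the MEF2 factors that activate Klf2 downstream of ERK5. Each line runs 5′ to 3′ on the plus strand and stops before the first annotated start. The windows are chr8:72318812-72319032 for Klf2, chr3:52268087-52268335 for Foxo1 and chr5:64803271-64803387 for Klf3.
Klf2: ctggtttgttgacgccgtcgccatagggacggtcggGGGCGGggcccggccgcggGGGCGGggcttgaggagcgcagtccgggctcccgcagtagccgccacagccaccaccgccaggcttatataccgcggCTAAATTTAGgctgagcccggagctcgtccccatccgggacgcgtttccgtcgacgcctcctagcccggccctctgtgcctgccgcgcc
Foxo1: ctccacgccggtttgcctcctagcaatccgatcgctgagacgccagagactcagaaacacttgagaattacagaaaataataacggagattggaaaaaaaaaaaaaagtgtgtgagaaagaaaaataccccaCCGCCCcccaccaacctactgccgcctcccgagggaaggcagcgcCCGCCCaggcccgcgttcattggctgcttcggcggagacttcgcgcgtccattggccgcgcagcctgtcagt
Klf3: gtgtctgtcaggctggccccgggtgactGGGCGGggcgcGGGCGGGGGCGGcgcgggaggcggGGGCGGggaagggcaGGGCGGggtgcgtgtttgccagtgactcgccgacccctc
In the 250 bases before the RefSeq start, a GC box was present in 5 of 5 genes, against 32.7% of all 32851 promoters in the table. Klf3 held 6 GC boxes, 5 of them in the bases shown, and 0.886% of promoters held as many. The FOXO core TGTTTAC was in 0 of 5 genes (3.17% of all promoters) and the MEF2 core CTAAAAATA in 0 of 5 (0.469%). The KLF/SP core GGGCGTGG was in 1 of 5, Klf13 (4.79%). The MEF2 consensus was in 1 of 5, Klf2 (2.92%), and this motif was added after the Klf2 sequence had been seen. All were searched on both strands. The MEF2 core can lie within the MEF2 consensus, and no other motif contains another.

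The 3 F5 libraries numbered 1, read here as 1 mouse, stood apart in these genes. In F5 replicate 1, Klf2 was 3.04 times the mean of the other F5 libraries at the early stage, 5.74 times at the late stage and 2.66 times at the mature stage. Klf6 was 2.15, 5.40 and 4.64 times as high in the same libraries, and S1pr1 3.94, 2.98 and 1.88 times. Of the 16372 symbols tested, 74 lay at least 2-fold above both other F5 libraries at all 3 stages in replicate 1, Klf2 and Klf6 among them, against 16 in replicate 2 and 10 in replicate 3. Immediate early genes, named after their values were seen, were among the 74. Jun, an AP-1 subunit, was 1125, 2311 and 1468 in F5 replicate 1 at the early, late and mature stages, against 119.1 to 292.2 in the other F5 libraries. Jun was also high in OT-1 early (1034 to 1123) and in TG6 early replicate 3 (1134, against 228.6 and 291.2). At the late stage, too, several of these genes were higher in every OT-1 than in every TG6 library, with Jun at 409.3 to 565.1 against 81.2 and 89.5, Fos, another AP-1 subunit, at 1257 to 2584 against 182.8 and 213.5, and Nr4a1, a nuclear receptor induced by TCR signals, at 4592 to 13330 against 1428 and 1864. Nr4a1 was also 6859 in TG6 mature replicate 3, against 1063 and 987.8 in the others. The part of these genes in the levels of Klf2, Klf6 and S1pr1 was not tested, and the comparisons below were also run without the 3 libraries of F5 replicate 1. The values of Klf2, Klf6 and S1pr1 themselves singled out that replicate. Removing it lowers their spread, so their smaller adjusted p-values without it follow in part from the choice.

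A library of another line, TG6 mature replicate 3, was high in genes of immature thymocytes. Its Cd24a was 4540 (5.28 times the mean of the other TG6 mature libraries), its Rag1 was 5265 (8 times) and its Cd4 was 460.7 (4.48 times). Foxo1 and S1pr1 were lower there, at 0.647 and 0.709 times the mean of the others. The part of these genes in its values was not tested.

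**Figure D1:**
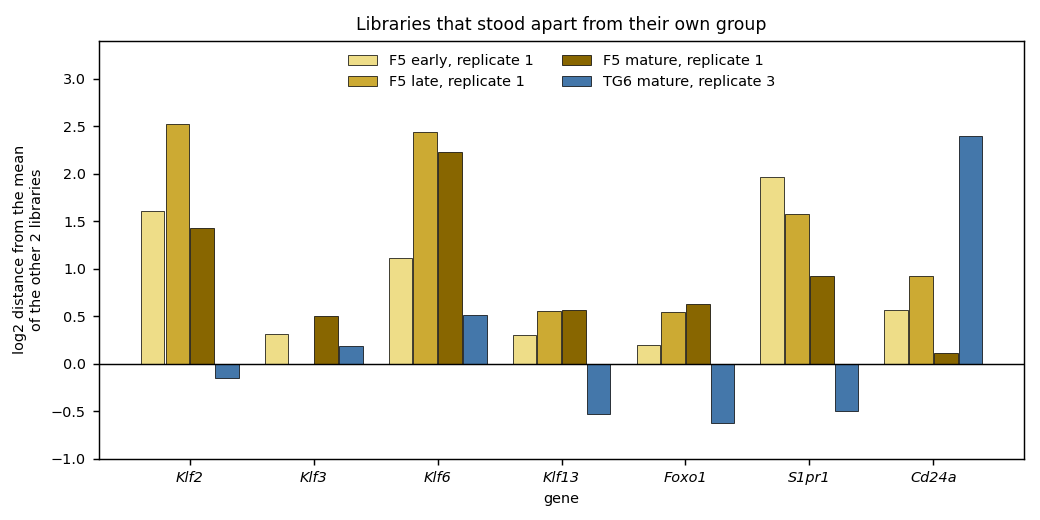
Distance on the log2(value + 1) scale of 4 libraries from the mean of the other 2 libraries of their group, for each of the 7 genes (bars). In F5 replicate 1, Klf2 lay 1.61, 2.52 and 1.43 above the others at the early, late and mature stages, and in TG6 mature replicate 3 Cd24a lay 2.40 above.

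Thymocyte markers were high in every library (Cd3e 4798 to 8667, Cd8a 15088 to 41213). Klf2 and S1pr1 are also endothelial genes, and the endothelial list of 4 markers summed to between 1822 and 3628, of which Pecam1, also a thymocyte gene, gave 1799 to 3627. The defining endothelial markers were near 0, with Kdr at most 2.96, Tek at most 1.67 and Cdh5 at most 22.6 (OT-1 mature replicate 1), and their medians were 0, 0 and 0.505. Cd24a is also an erythroid and B cell gene. The 4 erythroid markers summed to between 32.4 and 1156, highest in OT-1 replicate 3 within each OT-1 stage (1156, 985.4 and 1084), while Klf1, the erythroid KLF gene, was at most 9.04. The 3 B cell markers summed to between 107.9 and 281.8, and Cd79a was at most 20.6. Markers of some other cells differed between the lines. The 6 macrophage and dendritic cell markers summed to 66.3 to 267.1 in OT-1 early, against 11.2 to 62 in TG6 early and 6.12 to 44.7 in F5 early, and to 38.9 to 94.9 in OT-1 late, against 24.2 to 27.8 in TG6 late and 3.11 to 13 in F5 late. The 4 markers of NK and gamma delta T cells summed to 6643 to 7662 in OT-1 early, 8805 to 9998 in F5 early and 1720 to 2041 in TG6 early, so they were low in TG6 and high in both other lines. Trdc made up most of these sums (1544 to 9991 over all libraries), while Ncr1 was at 0 in all 26 libraries, Klrb1c was at most 15.3 and Tcrg-C1 was at 4.02 to 404.0. The CD4+CD8+ gates select against NK and most gamma delta T cells, and gamma delta receptors are not rearranged without RAG1 or RAG2 protein, which Rag1KO (F5) and Rag2KO (OT-1) mice lack. The part of macrophages, dendritic cells, NK cells and gamma delta T cells in the differences between lines was not tested.

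Klf2 had the widest range of the KLF genes. In sorted bulk cells, a lower value may be fewer cells with the transcript or less of it per cell, and these cannot be told apart. Its 3 TG6 early libraries were at 270.2, 333.0 and 374.5, F5 early at 1101, 383.0 and 340.7, and OT-1 early at 2100, 1882 and 1818. At the late stage the values were 744.9 and 743.1 in TG6, 3936, 730.7 and 639.9 in F5, and 6967, 6808 and 4916 in OT-1. Every OT-1 library lay above every TG6 and F5 library at both stages. In mature cells they were 5883, 6993 and 5776 in TG6, 13763, 4344 and 5985 in F5, and 10465, 12695 and 8061 in OT-1, so that only F5 replicate 1 reached the OT-1 range there. The group means spanned 31.9-fold, from TG6 early (325.9 ± 52.5, SD, n = 3) to OT-1 mature (10407 ± 2318, n = 3). Ordered by mean, the groups ran TG6 early, F5 early, TG6 late, F5 late, OT-1 early, TG6 mature, OT-1 late, F5 mature and OT-1 mature, and 1 of the 8 neighbouring pairs, OT-1 early and TG6 mature, had ranges that did not overlap. Here and below, such pairs were not counted over all symbols, so the counts describe each gene's own order only.

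S1pr1, the egress receptor, ran from 89.7 ± 17.5 (SD, n = 3) in TG6 early to 11154 ± 1802 (n = 3) in OT-1 mature, a span of 124.3-fold. The early libraries held 99.0, 69.6 and 100.6 in TG6, 276.7, 75.4 and 65.0 in F5, and 2303, 1923 and 1456 in OT-1. OT-1 cells at the early gate thus already exceeded the late TG6 libraries, at 1431 and 869.9, while late F5 libraries held 1893, 657.5 and 612.4. OT-1 late was at 10220, 8896 and 8976. Mature libraries held 7746, 7883 and 5543 in TG6, 9453, 4457 and 5592 in F5, and 11710, 12612 and 9139 in OT-1. The lowest OT-1 late value lay above all mature TG6 values. The order by mean was TG6 early, F5 early, F5 late, TG6 late, OT-1 early, F5 mature, TG6 mature, OT-1 late and OT-1 mature, and 4 of 8 neighbouring pairs did not overlap, a count not made over all symbols.

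Foxo1 followed stage more than line. It was 2740, 2602 and 2131 in TG6 early, 2124, 1981 and 1721 in F5 early, and 2915, 3256 and 2842 in OT-1 early. At the late stage it was 6061 and 5496 in TG6, 5960, 4041 and 4132 in F5, and 6941, 6969 and 6422 in OT-1. All 9 early libraries lay below all 17 later ones, whose mature values ran from 4066 to 7071. The 3 early groups were the lowest in order (F5, TG6, OT-1) and did not overlap one another, whereas the 6 later groups each overlapped the next of them in order.

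Cd24a went the other way. Early libraries held 4773 to 6209 in TG6, 5068 to 7498 in F5 and 5398 to 6791 in OT-1. Late libraries held 1912 and 1889 in TG6, 5075, 3069 and 2336 in F5, and 2796, 3246 and 2539 in OT-1. In mature cells the values were 904.8, 814.0 and 4540 in TG6, 2846, 3204 and 2179 in F5, and 1700, 1490 and 2043 in OT-1. TG6 mature replicates 1 and 2 were the lowest of all 26 libraries, and replicate 3 was in the range of late F5 cells. The TG6 mature mean was above that of OT-1 (2086 ± 2126 against 1744 ± 279.3, SD, n = 3), while the log2 difference had the opposite sign.

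The other KLF genes moved less. Klf3, a repressor that shares many binding sites with KLF2, ranged from 1802 to 5583 over all libraries and its highest group was TG6 early (3982, 4290 and 5583), against 2528, 2300 and 1802 in F5 early. Klf6, an inducible member of the family, was at 1320, 1450 and 2354 in TG6 early and 4033, 3807 and 2732 in OT-1 early. Its F5 late values were 8688, 1493 and 1726, of which replicate 1 was the highest and the others the lowest of all late libraries. Klf13, a broadly expressed member, ranged only from 5667 to 12523, and its 3 TG6 early libraries were at 10750, 10868 and 10737. No neighbouring groups of Klf3, Klf6 or Klf13 in their order of means were separated.

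Per kilobase of annotated exon, the scale on which levels of different genes can be set side by side, Cd24a (2095 ± 284.2) and Klf13 (1432 ± 9.63) led in TG6 early, and Klf2 (176.4 ± 28.4) and S1pr1 (29.5 ± 5.74) were the lowest (SD, n = 3). In OT-1 mature, Klf2 (5635 ± 1255) and S1pr1 (3662 ± 591.6) were the highest of the 7 (n = 3).

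**Figure D2:**
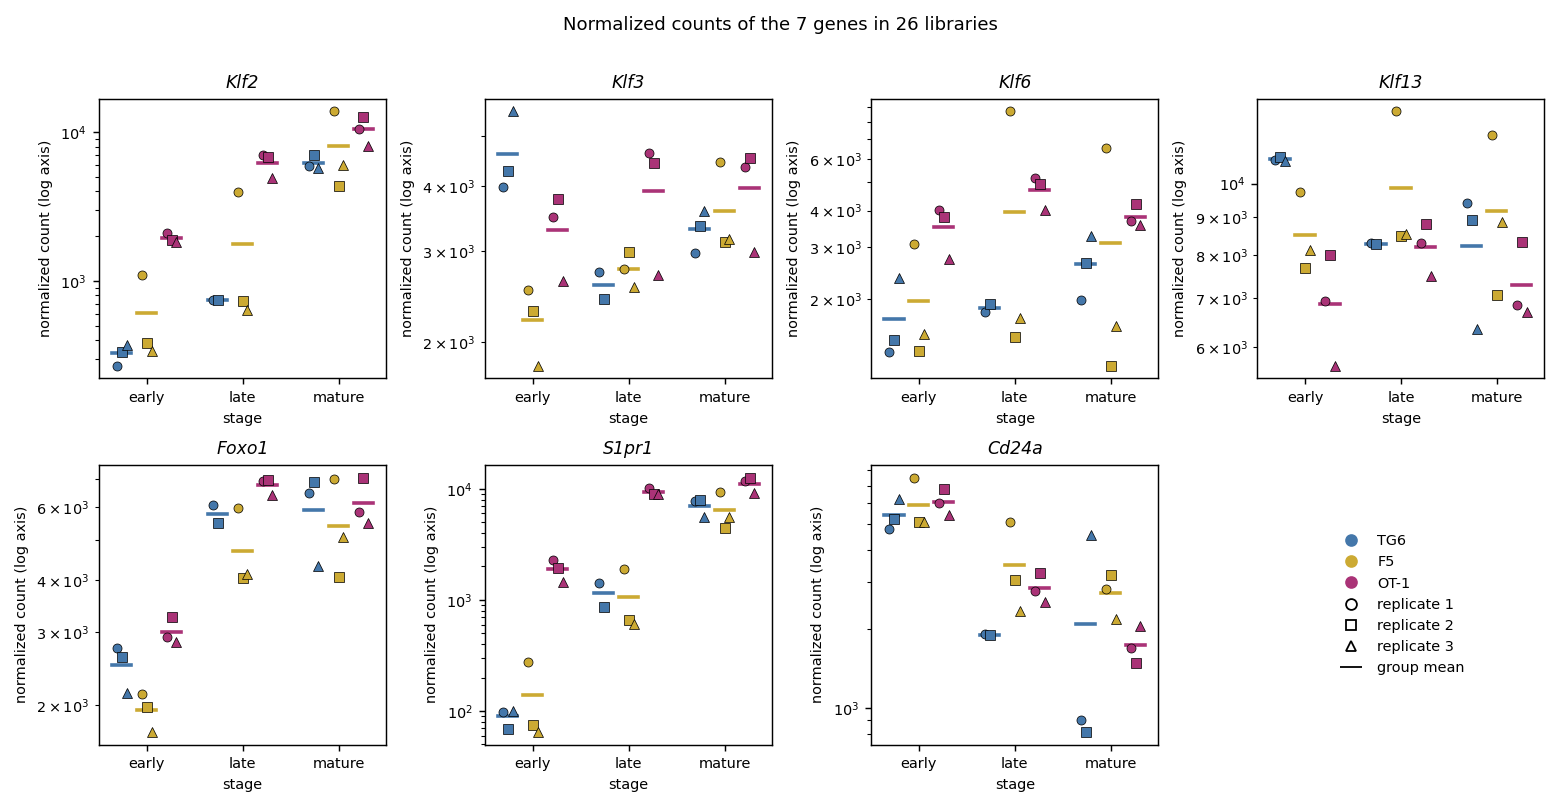
Normalized counts (log axis) of the 7 genes at each stage, with 1 point for each library, colour for the line, symbol for the replicate number and bars for group means. OT-1 libraries lie above all TG6 and F5 libraries for Klf2 and S1pr1 at the early and late stages, and F5 replicate 1 lies far above the other F5 libraries for Klf2 and Klf6.

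The lines were compared at each stage to ask how egress genes vary with self-reactivity at the same gate. At the early stage, 3 of the 7 genes were called between OT-1 and TG6 (adjusted p below 0.05, limma), where 27.8% of all symbols were called. S1pr1 was 20.8-fold higher in OT-1 (log2 difference 4.38 ± 0.43, SE, adjusted p = 1.3e-07) and Klf2 5.96-fold higher (2.58 ± 0.50, adjusted p = 0.00064). Klf13 was 1.59-fold lower (-0.67 ± 0.18, adjusted p = 0.0076). Klf6 was 1.07 ± 0.54 higher with an adjusted p of 0.15, although the OT-1 and TG6 libraries did not overlap. Without F5 replicate 1, which enters this comparison through the shared estimate of spread, Klf6 was called as higher in OT-1 (adjusted p = 0.00075). Klf3 (-0.49, 95% interval -0.91 to -0.06, adjusted p = 0.082), Foxo1 (0.28, -0.11 to 0.66) and Cd24a (0.17, -0.68 to 1.01) were not called.

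Between OT-1 and TG6 at the late stage, 2 of 7 genes were called, against 15.5% of all symbols. Klf2 was 8.26-fold higher in OT-1 (3.05 ± 0.56, adjusted p = 0.00065) and S1pr1 8.37-fold higher (3.06 ± 0.48, adjusted p = 0.00011). Klf6 was 1.32 ± 0.60 higher (adjusted p = 0.15, and 0.00055 without F5 replicate 1). Klf3 was 0.56 higher (adjusted p = 0.1), and without OT-1 late replicate 3, whose value of 2692 lay below the other OT-1 late libraries (4631 and 4433), it was 0.81 higher and called (0.016). In mature cells 0 of 7 were called, against 9.74% of all symbols. There the Klf2 difference was 0.72 (95% interval -0.32 to 1.77) and that of S1pr1 0.67 (-0.23 to 1.56). Both were called without F5 replicate 1, with adjusted p = 0.0096 and 0.042, and the OT-1 and TG6 libraries did not overlap for either. Without TG6 mature replicate 3, Cd24a was 2.01-fold higher in OT-1 mature cells (1.01 ± 0.24, adjusted p = 0.0036).

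OT-1 against F5 shares the OT-1 libraries with the comparison above. At the early stage 3 of 7 genes were called, with a background of 12.7% of symbols. S1pr1 was 16.6-fold higher in OT-1 (4.06 ± 0.43, adjusted p = 9.6e-07), Klf2 3.68-fold (1.88 ± 0.50, adjusted p = 0.016) and Foxo1 1.55-fold (0.63 ± 0.18, adjusted p = 0.026). The Klf2 call was lost without F5 early replicate 2 (adjusted p = 0.082), F5 early replicate 3 (0.096) or OT-1 early replicate 1 (0.055). The Foxo1 call was lost without F5 early replicate 2 (0.066), F5 early replicate 3 (0.12), OT-1 early replicate 1 (0.061) or OT-1 early replicate 2 (0.11). Without the 3 libraries of F5 replicate 1, 5 of 7 genes were called, against 13.9% of all symbols. These were Klf2 at 5.33-fold (adjusted p = 7.2e-08), S1pr1 at 26.2-fold (6.6e-11), Foxo1 at 1.62-fold (0.0072), Klf6 at 2.44-fold (0.00084) and Klf3 at 1.60-fold (0.049), all higher in OT-1.

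At the late stage 3 of 7 genes were called between OT-1 and F5, against 24.0% of symbols. Klf2 was 5.02-fold higher (2.33 ± 0.50, adjusted p = 0.0017), S1pr1 10.2-fold (3.35 ± 0.43, adjusted p = 5.7e-06) and Foxo1 1.46-fold (0.55 ± 0.18, adjusted p = 0.035). Without F5 replicate 1, Klf2 was 8.99-fold higher (adjusted p = 1.1e-09), S1pr1 14.7-fold (9.7e-10), Klf6 2.91-fold (7.6e-05) and Foxo1 1.66-fold (0.003). The Foxo1 call did not survive the removal of F5 late replicate 2 (0.14) or 3 (0.14), or of OT-1 late replicate 1 (0.094), 2 (0.09) or 3 (0.054). With OT-1 and F5 late libraries fitted alone, Klf2 (adjusted p = 0.07) and Foxo1 (0.067) were not called. In mature cells 0 of 7 were called, against 23.3% of symbols. Without F5 replicate 1, 3 of 7 were called there, against 19.6% of symbols. These were Klf2 (2.01-fold, adjusted p = 0.0012), Klf6 (2.74-fold, 0.00025) and S1pr1 (2.21-fold, 0.0018), all higher in OT-1.

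F5 and TG6 differed in 1 of the 7 genes at the early stage, against 6.46% of symbols. Klf3 was 2.09-fold lower in F5 (-1.06 ± 0.20, adjusted p = 0.002). For S1pr1 the difference was 0.32 (95% interval -0.57 to 1.22) and for Klf2 0.70 (-0.35 to 1.74). Without F5 replicate 1 the S1pr1 difference turned to -0.33 (adjusted p = 0.47) and that of Klf2 was 0.16 (adjusted p = 0.7). With the late F5 and TG6 libraries 0 of 7 were called (4.97% of symbols), and in mature cells 0 of 7 (6.64%). In mature cells, Cd24a was 0.86 higher in F5 (95% interval 0.01 to 1.70, adjusted p = 0.27), and without TG6 mature replicate 3 it was 3.15-fold higher (adjusted p = 5.3e-05). Klf6 was 1.86-fold lower in F5 mature cells without F5 replicate 1 (adjusted p = 0.024).

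**Figure D3:**
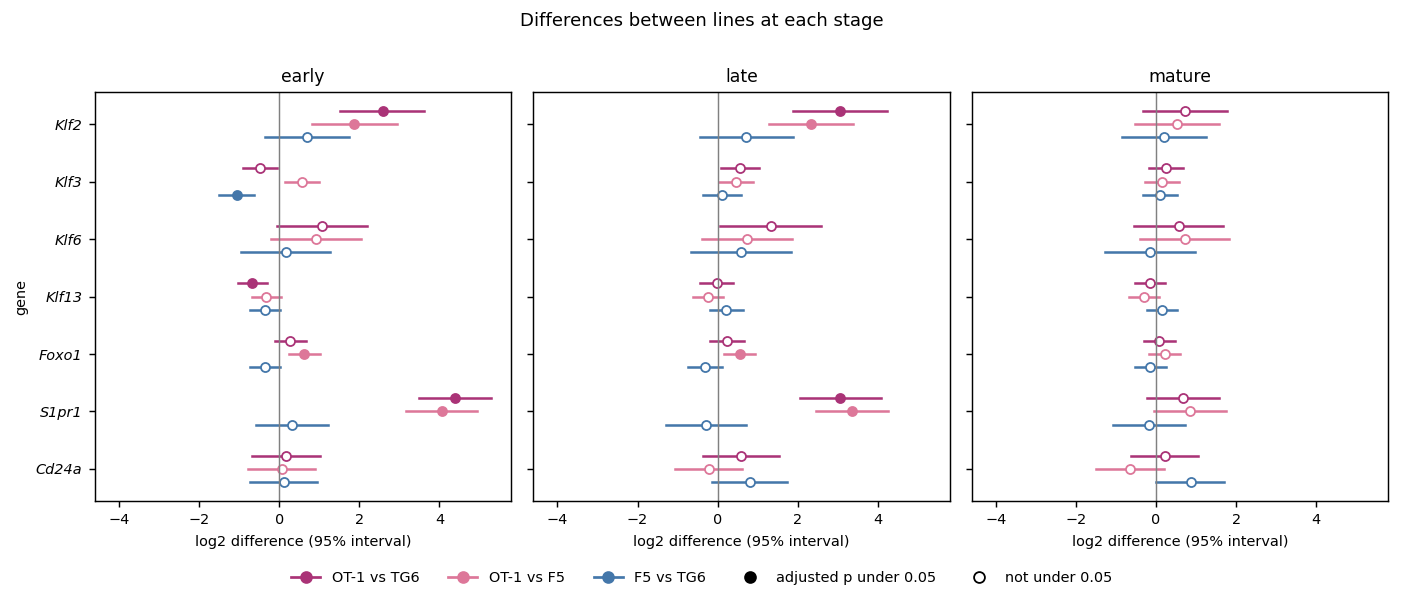
Differences between lines at each stage on the log2(value + 1) scale with 95% intervals, for each pair of lines (filled points, adjusted p under 0.05). Klf2 and S1pr1 are higher in OT-1 at the early and late stages, and no filled point appears in mature cells.

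Stages were then compared within each line to ask when each gene changed along positive selection. The labels number the biological replicates of a line, read here as mice, so each stage fit was also run with the mouse as a block. The shares of all symbols given for the stages belong to fits without the block, and those with it are not given here. For TG6 late this reading is less sure, since the titles of its libraries are written differently from those of the other TG6 libraries and its 4 same-numbered pairs correlated at only 0.023 to 0.0507. The blocked values of TG6 and of OT-1 against TG6 below rest on it. From early to late, 4 of 7 genes were called in TG6, against 25.4% of symbols. S1pr1 rose 12.5-fold (3.64 ± 0.48, adjusted p = 5.7e-06) and Foxo1 rose 2.33-fold (1.22 ± 0.21, adjusted p = 0.00011). Klf3 fell 1.77-fold (-0.83 ± 0.23, adjusted p = 0.0097) and Cd24a fell 2.83-fold (-1.50 ± 0.45, adjusted p = 0.018). Klf2 was higher in both late libraries than in all 3 early ones (adjusted p = 0.13), and it was called with the mouse as a block (1.23, adjusted p = 0.0006) and without F5 replicate 1 (7.8e-05). Klf13 was also called as lower with the block (-0.47, adjusted p = 0.0055). The Klf3 call was lost without TG6 late replicate 2 (adjusted p = 0.1) or TG6 early replicate 3 (0.053), and the Cd24a call without TG6 late replicate 1 (0.09) or 2 (0.096) or TG6 early replicate 3 (0.056).

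In F5, 2 of 7 genes were called from early to late without the block, against 26.7% of symbols. With the mouse as a block 6 were called, a count with no share of all symbols to set beside it here. Foxo1 rose 2.39-fold (1.26 ± 0.18, adjusted p = 2.3e-05) and S1pr1 rose 8.17-fold (3.03 ± 0.43, adjusted p = 1.7e-05). With the block, Klf2 (1.22, adjusted p = 0.00012), Klf3 (0.34, 0.02) and Klf6 (0.61, 0.021) were also called as higher and Cd24a as lower (-0.80, 0.045). Without the block Klf2 had an adjusted p of 0.078. It was called without the 3 libraries of F5 replicate 1 (log2 difference 0.92, 1.89-fold, adjusted p = 0.0035). It was also called without F5 early replicate 1 (log2 difference 1.76, 0.016), F5 late replicate 2 (log2 difference 1.60, 0.037) or F5 late replicate 3 (log2 difference 1.69, 0.026).

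In OT-1, 3 of 7 genes were called from early to late, against 26.7% of symbols. S1pr1 rose 5.02-fold (2.33 ± 0.43, adjusted p = 0.00037), Klf2 rose 3.19-fold (1.67 ± 0.50, adjusted p = 0.017) and Foxo1 rose 2.26-fold (1.18 ± 0.18, adjusted p = 7.3e-05). Cd24a was 1.09 lower (adjusted p = 0.052) and was called with the mouse as a block (adjusted p = 0.0095), as was Klf13 (0.27 higher, 0.042). The Klf2 call was lost without OT-1 late replicate 1 (adjusted p = 0.057) or 2 (0.055) or OT-1 early replicate 3 (0.052), and it stood at 8.1e-06 with the block.

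From late to mature, Klf2 and S1pr1 were the 2 genes of 7 called in TG6 (22.3% of symbols called). Klf2 rose 8.32-fold (3.06 ± 0.56, adjusted p = 0.00045) and S1pr1 rose 6.24-fold (2.64 ± 0.48, adjusted p = 0.00041). Without TG6 mature replicate 3, Cd24a fell 2.21-fold (-1.15 ± 0.26, adjusted p = 0.0037), against a difference of -0.35 (95% interval -1.29 to 0.60) with it. In F5, 2 of 7 were again called (20.5% of symbols), Klf2 at 5.79-fold (2.53 ± 0.50, adjusted p = 0.00086) and S1pr1 at 6.75-fold (2.76 ± 0.43, adjusted p = 8e-05). With F5 late and mature libraries fitted alone the Klf2 call was lost (adjusted p = 0.11), and with the mouse as a block Klf3 was added (0.35, 0.019). In OT-1, 0 of 7 were called (24.4% of symbols). There Klf2 was 0.73 higher (95% interval -0.32 to 1.78), and it was called with the mouse as a block (adjusted p = 0.0079) and without F5 replicate 1 (0.0037), while S1pr1 was 0.24 higher (-0.65 to 1.14).

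Whether OT-1 and TG6 changed by different amounts was tested as an interaction. None of the 7 genes was called from early to late (2.04% of symbols) or from late to mature (1.17%) when libraries were treated as independent. The late to mature change of Klf2 was 2.32 smaller in OT-1 (adjusted p = 0.18) and that of S1pr1 2.40 smaller (adjusted p = 0.081) on the log2 scale. With the mouse as a block both were called, with differences of -2.29 and -2.44 and an adjusted p of 0.0013 for each, and without F5 replicate 1 they stood at 0.00022 and 0.00044. From early to late, the block gave calls for Klf3 (0.95, adjusted p = 0.0033) and Klf13 (0.74, 0.011), whose changes were more positive in OT-1, and for S1pr1 (-1.28, 0.031), whose rise was smaller in OT-1. For Foxo1 the difference between lines was -0.05 (95% interval -0.62 to 0.53) from early to late.

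**Figure D4:**
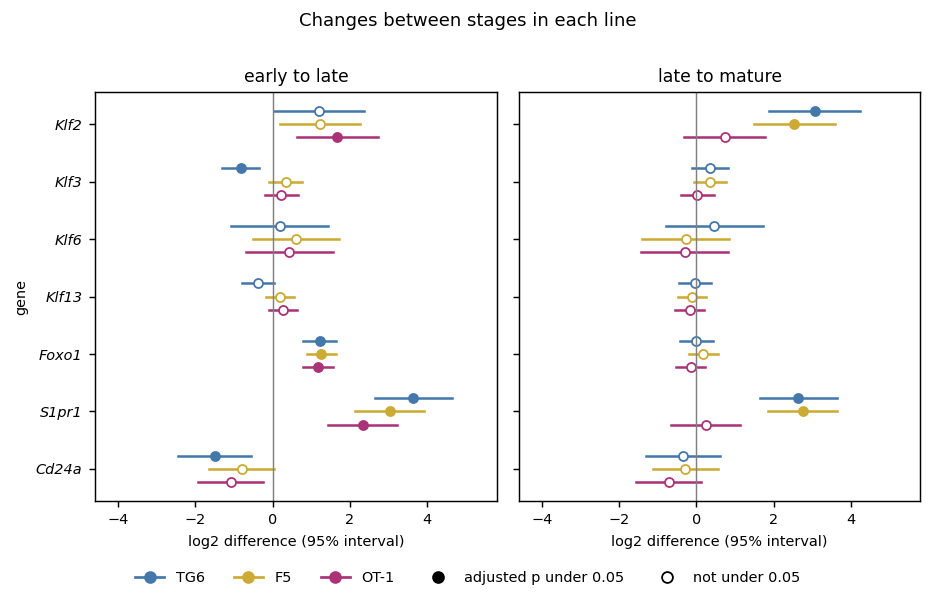
Changes from early to late and from late to mature in each line on the log2(value + 1) scale with 95% intervals, from the fit without a block (filled points, adjusted p under 0.05). Foxo1 and S1pr1 rise from early to late in all 3 lines, and from late to mature Klf2 and S1pr1 are filled in TG6 and F5 and open in OT-1.

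Genes known as targets of KLF2 and FOXO1 in T cells (Itgb7, Il7r, Ccr7, S1pr4, Cdkn1b, Pik3ip1 and Tcf7) were read from the same fits. In OT-1 early against TG6 early, 3 of the 7 were called as higher and 1 as lower (27.8% of all symbols called), with a median difference of 0.31 on the log2 scale, while that of all symbols was 0.00. Il7r, the interleukin 7 receptor, was at 160.9, 182.7 and 88.7 in OT-1 early and 11.9, 9.94 and 12.6 in TG6 early (11.2-fold, adjusted p = 3.9e-06). Ccr7, a medullary homing receptor that also served as a sorting marker, was 5.39-fold higher (adjusted p = 1.8e-05), and Itgb7, a subunit of a mucosal homing integrin, was 1.96-fold higher (adjusted p = 0.00027). Pik3ip1, an inhibitor of phosphoinositide 3-kinase, was 1.59-fold lower (adjusted p = 0.031). In late OT-1 against late TG6 cells 2 of 7 were called as higher and 0 as lower (median 0.23, with 15.5% of all symbols called), namely Itgb7 (2.49-fold, adjusted p = 5.1e-05) and S1pr4 (2.13-fold, 0.0002), and in mature cells 0 of 7 were called (median 0.12, 9.74% of symbols).

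Against F5, OT-1 was higher in 3, 4 and 2 of the 7 targets at the early, late and mature stages and lower in 0, 1 and 2, with median differences of 0.39, 1.00 and 0.35. The shares of all symbols called in those comparisons were 12.7%, 24.0% and 23.3%. In Il7r the lines parted most, with mature libraries at 1868, 2471 and 1774 in OT-1, 1162, 1383 and 852.2 in TG6, and 105.1, 35.0 and 221.7 in F5. F5 was thus 21.3-fold below OT-1 (adjusted p = 3.3e-07) and 11.7-fold below TG6 (6.1e-06) for Il7r, while with all libraries Klf2 and Foxo1 were not called between mature F5 cells and either line. Between F5 and TG6, 0, 1 and 1 of the targets were higher at the 3 stages, Tcf7 in both cases, and 0, 1 and 1 were lower, Il7r in both cases, against 6.46%, 4.97% and 6.64% of all symbols called. Without F5 replicate 1, whose Ccr7 was 7609 at the late stage against 2698 and 3615 in the others, Ccr7 was also called as lower in F5 than in TG6 late (2.57-fold, adjusted p = 0.005) and mature cells (2.52-fold, 0.0023), it was called as higher in OT-1 than in F5 mature cells (2.08-fold, 0.007), and the late Tcf7 call was lost (0.081). Tcf7 encodes the transcription factor TCF-1, and it was 1.54-fold higher in F5 mature cells (adjusted p = 0.00046).

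From late to mature, 2 of the 7 targets were called as higher in each line, and 1, 2 and 2 as lower in TG6, F5 and OT-1. The shares of all symbols called were 22.3%, 20.5% and 24.4%. The higher ones were Itgb7 and S1pr4 in all 3 lines, S1pr4 by 2.40-fold in TG6, 2.45-fold in F5 and 1.56-fold in OT-1 (adjusted p = 3.2e-05, 7.1e-06 and 0.0059). From early to late, 3, 5 and 5 of the 7 targets were called as higher in TG6, F5 and OT-1, and 1, 0 and 1 as lower. The shares of all symbols called were 25.4%, 26.7% and 26.7%. Itgb7, Il7r and Ccr7 were higher in all 3 lines. Tcf7 was the lower one in TG6 (-0.47 on the log2 scale, adjusted p = 0.0061) and OT-1 (-0.50, 0.0015). Il7r rose 58.3-fold in TG6, 4.75-fold in F5 and 7.05-fold in OT-1 (adjusted p = 1.2e-08, 0.00053 and 6.7e-05). Since CCR7 protein separated the early from the late gate, the rise of Ccr7 between those stages is not a finding. Tcf7 fell from late to mature in all 3 lines, by 0.63 in TG6, 0.48 in F5 and 0.45 in OT-1 on the log2 scale (adjusted p = 0.00061, 0.0025 and 0.0045). Cdkn1b also fell in F5 (1.69-fold, adjusted p = 0.026) and Pik3ip1 in OT-1 (1.67-fold, 0.019).

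**Figure D5:**
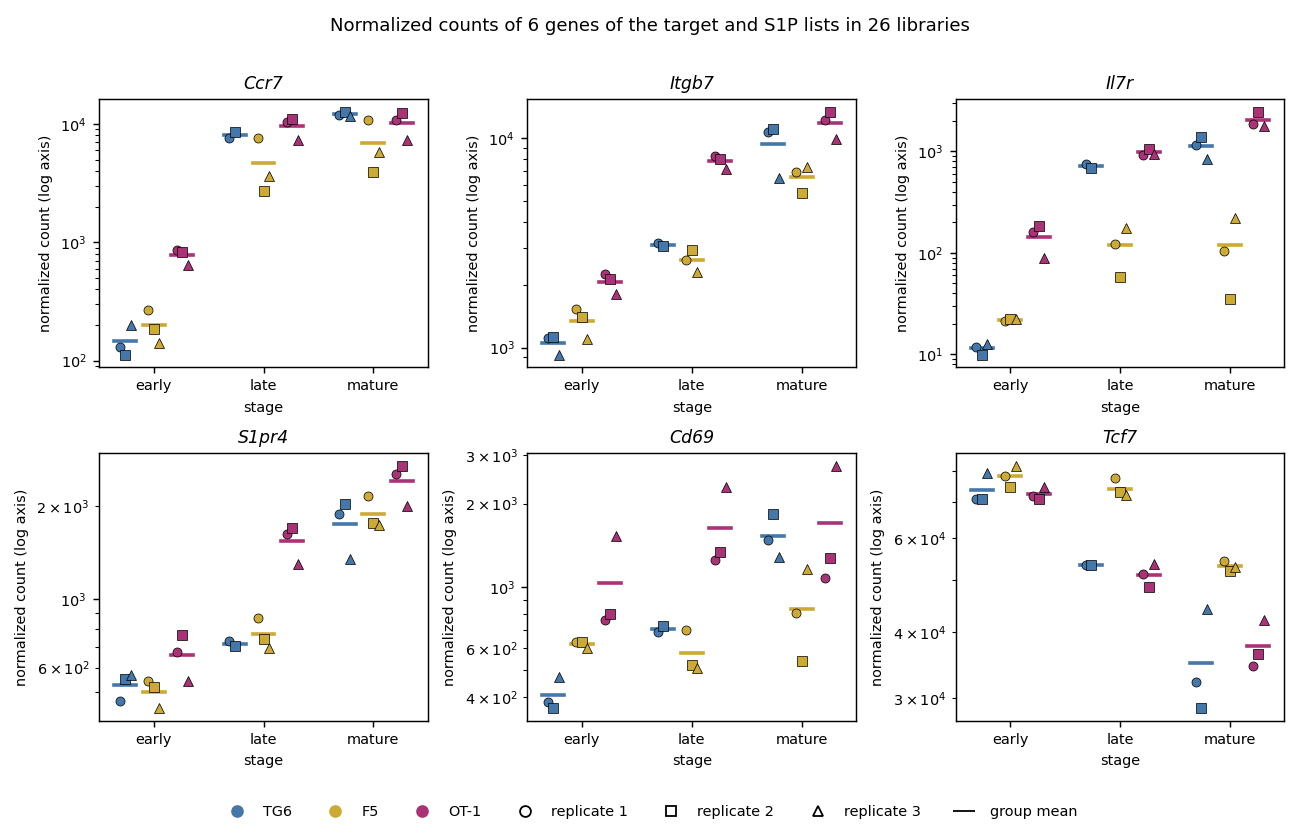
Normalized counts (log axis) of 6 genes of the target and sphingosine 1-phosphate lists at each stage, with 1 point for each library, colour for the line, symbol for the replicate number and bars for group means. F5 stays at 35.0 to 221.7 for Il7r in mature cells, below all TG6 and OT-1 mature libraries.

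Of the other genes of the sphingosine 1-phosphate system, 15 of 18 were tested. Between OT-1 and TG6, 3 were higher and 2 lower at the early stage, 2 higher at the late stage and 1 higher in mature cells, with medians of 0.14, 0.06 and 0.08. The shares of all symbols called were 27.8%, 15.5% and 9.74%, near those of the list. Cd69, whose product opposes S1PR1 at the surface, was 2.41-fold higher in OT-1 early (760.4, 795.9 and 1533 against 382.9, 364.0 and 472.5, adjusted p = 0.0049) and 2.22-fold higher in OT-1 late cells (adjusted p = 0.031). In mature cells the OT-1 libraries (1082, 1273 and 2747) and the TG6 libraries (1476, 1840 and 1283) overlapped. Against F5, OT-1 was higher in 0, 3 and 4 of the 15 at the early, late and mature stages and lower in 1, 3 and 0, with 12.7%, 24.0% and 23.3% of all symbols called. Cd69 was 2.75-fold higher in OT-1 than in F5 at the late stage (adjusted p = 0.0018) and 1.96-fold higher in mature cells (0.031, and 0.073 without F5 replicate 1). With F5 replicate 1 left out, 2 of the 15 rather than 4 were higher in mature OT-1 cells than in F5 (19.6% of all symbols called). In that fit 3 were higher and 1 lower in OT-1 late than in TG6 late (17.3% of all symbols called). Between F5 and TG6 none of the 15 was called at any stage, where 4.97% to 6.64% of all symbols were called. Of the other KLF genes, 8 of 13 were tested, of which 1 was higher (Klf11) and 1 lower (Klf7) in OT-1 early than in TG6 early, 1 lower at the late stage (Klf7) and 0 in mature cells. The shares of all symbols called were 27.8%, 15.5% and 9.74%. Klf7 was 1.57-fold lower in OT-1 early than TG6 early (adjusted p = 0.0048), 1.74-fold lower at the late stage (0.0041) and -0.49 on the log2 scale in mature cells (0.061, not called, and 0.03 without F5 replicate 1). Against F5, 0 of the 8 were higher in OT-1 at any stage, and 1 (Klf12), 2 (Klf7 and Klf8) and 1 (Klf7) were lower at the early, late and mature stages, beside 12.7%, 24.0% and 23.3% of all symbols. Klf7 was 1.54-fold lower in OT-1 than in F5 late cells (adjusted p = 0.0072) and 1.42-fold lower in mature cells (0.029). Of these, only the late Klf7 call was kept without F5 replicate 1, and Klf11 was called as higher in OT-1 than in F5 early (2.41-fold, 0.033). Without it, Klf11 was also called as higher in OT-1 than in TG6 late (0.045) and mature cells (0.049), and Klf4 in late cells (0.022). Between F5 and TG6 0 of the 8 were called at each stage, beside 6.46%, 4.97% and 6.64% of all symbols. From late to mature Klf7 fell in TG6 (1.69-fold, adjusted p = 0.0045), in F5 (1.48-fold, 0.016) and in OT-1 (1.36-fold, 0.049), where 22.3%, 20.5% and 24.4% of all symbols were called. Klf10, a TGF-beta inducible member, fell from early to late in TG6 (-1.69, adjusted p = 0.007), F5 (-1.09, 0.048, and 0.085 without F5 replicate 1) and OT-1 (-1.23, 0.026).

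Foxo3 and Foxo4 were the other FOXO genes tested, and with all libraries Foxo4 was called in no comparison. Foxo3 was lower in OT-1 than in TG6 early (-0.31, adjusted p = 0.037), F5 late (-0.30, 0.046) and F5 mature cells (-0.36, 0.02), where 27.8%, 24.0% and 23.3% of all symbols were called, and without F5 replicate 1 the calls against F5 were lost (0.1 and 0.083). It rose from early to late in F5 (0.46, adjusted p = 0.0026), with 26.7% of symbols called. Foxo3 fell from late to mature in TG6 (1.33-fold, adjusted p = 0.017), F5 (1.53-fold, 0.00029) and OT-1 (1.59-fold, 0.00014), with 22.3%, 20.5% and 24.4% of symbols called. Foxo4 was also called as lower from late to mature in TG6 (0.01) and OT-1 (0.027) without F5 replicate 1. Of 13 genes upstream of Klf2 and Foxo1, 5 were higher and 4 lower at the late than the early stage in TG6, 6 and 2 in F5, and 1 and 2 in OT-1, where 25.4%, 26.7% and 26.7% of all symbols were called. Pik3cd, the leukocyte catalytic subunit of phosphoinositide 3-kinase, rose in all 3 lines, by 3.80-fold in TG6, 1.79-fold in F5 and 2.47-fold in OT-1 (adjusted p = 1.3e-08, 0.00016 and 1.5e-06). Akt1, an AKT gene, fell in all 3 lines, by 1.58-fold, 1.42-fold and 1.53-fold (adjusted p = 0.00078, 0.0028 and 0.00064). Between OT-1 and TG6, 1 of the 13 was higher and 1 lower at the early stage, 0 higher and 3 lower at the late stage, and 0 higher and 1 lower in mature cells, against 27.8%, 15.5% and 9.74% of all symbols. The 3 at the late stage were Mapk7, which encodes ERK5 (1.65-fold, adjusted p = 0.0027), and the ubiquitin ligase genes Smurf1 (1.51-fold, 0.04) and Wwp1 (1.27-fold, 0.042, and 0.052 without F5 replicate 1). Wwp1 was also the gene lower in mature cells (1.27-fold, adjusted p = 0.035). Against F5, OT-1 was higher in 0, 1 and 3 of the 13 and lower in 0, 1 and 1 at the early, late and mature stages (12.7%, 24.0% and 23.3% of symbols), and Mapk7 was the lower one, by 2.12-fold in late (5.5e-06) and 1.49-fold in mature cells (0.0054). Sgk1, a kinase that phosphorylates FOXO proteins, was called as higher in OT-1 than in F5 in mature cells (adjusted p = 0.025), and without F5 replicate 1 it was called at all 3 stages (1.74-fold, 2.33-fold and 3.07-fold) and also against TG6 in mature cells (1.94-fold, adjusted p = 0.012). Between F5 and TG6, 1 of the 13 was called, Pik3cd as higher in F5 early (6.46% of symbols), and this call was lost without F5 replicate 1 (0.072), where Smurf1 was called as lower in F5 early (0.036) and late (0.026).

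Of 3 maturation markers other than Cd24a that rise with maturity (Il7r, H2-Q7 and Il6ra), 2 were higher and 1 lower in OT-1 early than in TG6 early, with a median difference of 3.48 (27.8% of all symbols called). The lower one was H2-Q7, an MHC class Ib gene, in lines whose H2 haplotypes differ. At the late and mature stages 1 (Il6ra) was higher and 1 (H2-Q7) lower in OT-1 than in TG6 (15.5% and 9.74% of symbols). Against F5, OT-1 was higher in 2, 3 and 3 of these at the early, late and mature stages, where 12.7%, 24.0% and 23.3% of all symbols were called. Between F5 and TG6, H2-Q7 was lower in F5 early, and all 3 were lower in F5 late and F5 mature cells (6.46%, 4.97% and 6.64% of symbols), among them Il6ra by 2.25-fold (adjusted p = 0.024) and 2.31-fold (0.006). Of 4 markers that fall (Cd69, Ccr9, Rag1 and Rag2), Rag1 and Rag2 were lower and Cd69 higher in OT-1 early than in TG6 early (27.8% of all symbols called). Both Rag genes fell from early to late in all 3 lines, as Cd24a did in TG6. In that step 25.4%, 26.7% and 26.7% of all symbols were called in TG6, F5 and OT-1. Ccr9 went the other way in F5 (1.41-fold higher, adjusted p = 0.039), a call lost without F5 replicate 1. Ccr9 was not called there in TG6 or OT-1, and Cd69 in no line. From late to mature, Rag1 was higher by 7.45-fold in TG6 (adjusted p = 0.038), 6.78-fold in F5 (0.029) and 7.16-fold in OT-1 (0.022). Each of these calls was lost without certain single libraries. The TG6 call was lost without TG6 mature replicate 3 (3.73-fold, adjusted p = 0.2), TG6 late replicate 1 (0.085) or TG6 late replicate 2 (0.25). The F5 call was lost without F5 mature replicate 2 (0.13) or 3 (0.078) or F5 late replicate 1 (3.59-fold, 0.16) or 3 (0.14), while without F5 late replicate 2, at 1658 against 62.3 and 109.0 in the others, it was 18.4-fold (0.00022). Without the 3 libraries of F5 replicate 1, neither Rag1 (5.30-fold, 0.097) nor Rag2 (6.41-fold, 0.063) was called there. The OT-1 call was lost without OT-1 mature replicate 3 (0.096) or OT-1 late replicate 1 (0.067) or 2 (0.092). Rag2 was higher in F5 (8.12-fold, 0.036), a call lost without F5 mature replicate 2 (0.17) or 3 (0.1) or F5 late replicate 1 (3.47-fold, 0.21) or 3 (0.13), and it was 24.1-fold higher without F5 late replicate 2 (0.0005) and 15-fold higher without F5 mature replicate 1 (0.011). Cd69 was higher in TG6 (2.15-fold, 0.029), a call lost without TG6 mature replicate 2 (0.078) or TG6 late replicate 1 (0.14) or 2 (0.12). Ccr9 fell in all 3 lines (2.75-fold, 2.82-fold and 2.43-fold in TG6, F5 and OT-1). Rag1KO and Rag2KO alleles are carried by F5 and OT-1, so Rag levels between lines are not comparable.

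For each of the 7 genes, the symbols with the most similar pattern over the 26 libraries were sought among 9899 with a mean of at least 100. These correlations share the same libraries and stages and describe the pattern only. Klf2 lay nearest to the ribosomal protein genes Rps7, Rpl36 and Rps24 (r = 0.97 each), and S1pr1 to Smad7 (0.98), Gm10275 and D8Ertd82e (0.97 each). Foxo1 lay nearest to Ccdc88c (0.97), Tgfbr2 (0.96) and Klk8 (0.95), and Cd24a to Ppp6r3 (0.94), Gtf2a2 (0.93) and Sort1 (0.92). The nearest to Klf6 were Zfand2a, Ier2 and Isca1 (0.91 each), to Klf13 Orai2 (0.86), Cyb561d1 (0.82) and Gm20033 (0.81), and to Klf3 Clcn3 (0.76), Furin and Wdfy1 (0.73 each).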

How the data were processed

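RNA was sequenced in 26 libraries of sorted thymocytes. The submitters' processing notes name Trimmomatic 0.32, Bowtie2 2.3.2, RSEM 1.2.31 and DESeq2 on mm10. The authors deposited signal values, which are normalized counts made by dividing RSEM estimates by DESeq2 size factors. Of the values above 0, 2.31% lay within 0.01 of a whole number, so no count test was run. Deposited totals were 16134786 to 18944173 per library after this scaling, so they are not read depths. Precision at low values is limited by read depth, which these totals do not give.

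Values were analysed as log2(value + 1), so fold changes of low genes are understated. The limma package (3.58.1, R 4.3.3) fitted 9 group means with a mean-dependent prior variance (17 residual degrees of freedom). P-values were adjusted by Benjamini-Hochberg within each comparison over the 16372 symbols tested and called under 0.05. Promoters, exon lengths and motifs were read in Python 3.11.15.

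The series names 3 mice per line, each sorted into 3 populations, and the labels number them, so equal numbers within a line were taken as 1 mouse, which no label states outright. Deviations of same-numbered libraries correlated at 0.106 to 0.34 in F5 (9 of 9 pairs over 0.1), 0.0189 to 0.178 in OT-1 (5 of 9) and 0.023 to 0.274 in TG6 (2 of 7). Alternatives were pseudocounts of 0.1 and 5, no filter, equal totals, quantile normalization, only the groups compared, a replicate block and leaving out each library. The set without F5 replicate 1 was chosen after seeing the data, for the high Klf2, Klf6 and S1pr1 values of that replicate. Adjusted p-values of these genes without it therefore follow in part from that choice.

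The 7 genes and the lists were chosen with earlier results of these data known. Named list genes are those called with a group mean of at least 100 and the largest fold changes, at most 2 per direction, and Ccr7, Il7r, Cd69 and S1pr4. A few list members are not reported here, and the counts leave them out. Other list genes named here were chosen after their values were seen, as were the immediate early genes.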

Additional observations from a re-analysis of the deposited data

Results flagged for a closer look

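The stage changes of 4 genes of the pathway lists differed between OT-1 and TG6 in the test of the difference itself. From early to late these were 2 of the 7 targets, 1 of the 13 upstream genes and 2 of the 3 rising markers (2.04% of all symbols called). Il7r is both a target and a rising marker. From late to mature it was 1 of the 3 rising markers (1.17% of all symbols). No gene of the other lists was called. From early to late, the change of Il7r was smaller in OT-1 by 3.05 on the log2 scale (-3.05 ± 0.66, SE, adjusted p = 0.016), and that of Ccr7, a sorting marker of this step, was smaller (-2.20 ± 0.52, 0.027). Il6ra, the interleukin 6 receptor, also changed by less in OT-1, with differences of -2.32 ± 0.41 (0.0027) from early to late and -1.75 ± 0.41 (0.032) from late to mature. The change of Pik3r1, a regulatory subunit of phosphoinositide 3-kinase, was more positive in OT-1 by 1.06 ± 0.24 (0.022). These are adjusted p-values from limma.

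With the mouse as a block, the changes of 4 of the 7 genes also differed between OT-1 and TG6. The share of all symbols called with the block is not given here. From early to late the differences were 0.95 for Klf3, 0.74 for Klf13 and -1.28 for S1pr1. From late to mature they were -2.29 for Klf2 and -2.44 for S1pr1. With all libraries, none of these was called without the block, and the cause was not tested. Groups of 2 or 3 libraries are too small for an outlier test.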

How the results depend on the processing

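Each test of the 7 genes was repeated under the alternatives. Of 1708 such values, 1619 stayed on their side of the threshold, 26 were no longer called, 63 became called and 0 changed sign after being called. Among the 1619 were 69 that changed sign with neither value called (smallest adjusted p 0.47). Pseudocounts of 0.1 and 5 changed no call.

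The number of the 7 genes called moved by more than 1.5 times, or from 0, as follows. Of these alternatives, the share of all symbols called is given only for the fits without F5 replicate 1. With the replicate block, the pairing of libraries by mouse gave 6 (2 without it) for F5 early to late, 5 (3) for OT-1 early to late, 1 (0) for OT-1 late to mature, and 3 (0) and 2 (0) for the differences between OT-1 and TG6 from early to late and late to mature. Between lines equal numbers name no shared mouse, and there the block added Klf3 for OT-1 against TG6 late (0.65, adjusted p = 0.04) and OT-1 against F5 early (0.58, 0.044). When the other groups were left out of the fit, the counts were 4 (2) for OT-1 against TG6 late, 1 (3) for OT-1 against F5 late, 1 (2) for F5 late to mature, 2 (0) for OT-1 late to mature, and 2 (0) and 2 (0) for the differences. Without the 3 libraries of F5 replicate 1, they were 2 (0) for OT-1 against TG6 mature, 5 (3) and 3 (0) for OT-1 against F5 early and mature, 1 (0) for F5 against TG6 mature, 1 (0) for OT-1 late to mature, and 1 (0) and 2 (0) for the differences. In the same order, 10.5%, 13.9%, 19.6%, 5.74%, 25.7%, 2.1% and 1.41% of all symbols were called without that replicate. Quantile normalization gave 1 (0) for OT-1 against F5 mature (Klf13, -0.46, 0.036), and it also called Klf3 for OT-1 against TG6 early (-0.56, 0.034). Without the filter, Foxo1 was not called for OT-1 against F5 late (0.058). Leaving out each library in turn gave 1 to 4 for OT-1 against F5 early, 2 to 4 late and 0 to 1 mature, 0 to 1 for OT-1 against TG6 mature and for F5 against TG6 mature, 2 to 4 for TG6 early to late, 0 to 0 for OT-1 late to mature, and 0 to 1 for each difference. The cause was not tested.

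With totals made equal, the median of all symbols moved by -0.11, -0.13 and -0.09 for OT-1 against TG6 (early, late, mature), and the share of calls that were higher fell from 55.3% to 40.9%, 60.1% to 38.9% and 47.9% to 30.6%. For OT-1 against F5 it fell from 61.5% to 43.7%, 56.8% to 46% and 56.9% to 34.4%, for TG6 late to mature from 65.1% to 49.8%, and for F5 against TG6 mature it rose from 32.2% to 42.2%. Foxo1 was then not called between OT-1 and F5 early (0.53, adjusted p = 0.051) or late (0.47, 0.061), and Klf3 was called as lower in OT-1 than TG6 early (-0.59, 0.024), as was Cd24a from early to late in OT-1 (0.042).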
